A study of Mus musculus with 4 samples.

Results

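Matrix metalloproteinases and their inhibitors were examined in mechanically loaded osteocyte-like cells as a set of 10 genes out of the 55450 genes counted. The set was chosen by name, with earlier results of these data known. Its enzymes are the gelatinases *Mmp2* and *Mmp9*, the stromelysins *Mmp3* and *Mmp10*, the collagenase *Mmp13* and the membrane-anchored *Mmp14*. Its inhibitors are the tissue inhibitors *Timp1*, *Timp2* and *Timp3* and the membrane-bound *Reck*. Each name occurred once in the count table, and all 10 genes passed the filter on low counts, which kept 16269 genes. RNA-seq gave 4 libraries of MLO-Y4, a mouse cell line with osteocyte-like features whose genotype the records give as WT, of which 2 were unloaded and 2 loaded. The loaded cells grew on a flexible silicone membrane with a type I collagen coat and, from 60% confluency, were stretched in all directions for 12 h at 0.5 Hz and 20% strain. The unloaded cells grew on standard 6-well plates, for which no collagen coat is recorded, and stood in the incubator of the same loading system for 12 h. Stretching and the coated surface therefore changed together, and their contributions cannot be told apart. The RNA came from whole cultures, in which fewer cells of a type and less RNA per cell cannot be told apart.

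Matrix metalloproteinases are zinc-dependent enzymes that cut collagens, proteoglycans and other proteins of the extracellular matrix. They are made as inactive precursors, are activated by other proteases or by one another, and are blocked by TIMP proteins, which bind the active site. Osteocytes sit in lacunae within mineralized bone and use these enzymes to remodel the wall of the lacuna and its canaliculi, a process in which MMP13, MMP2 and MMP14 are known to take part. RNA levels describe only the supply of messenger. Whether precursor enzymes were activated was not measured.

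The libraries held between 28941994 and 32185693 counts, so that 3 counts, used as the detection floor, correspond to between 0.0929 and 0.103 CPM (a count scaled to a common library size, with TMM factors). The floor covers counting error only. Nothing in the records states that the replicates came from separately grown cultures, so p-values measure the spread between these libraries. Of 7 osteocyte markers, *Pdpn*, *Gja1* and *Phex* were well counted, *Dmp1* had between 12 and 14 counts per library, *Sost* and *Fgf23* had at most 9, and *Mepe* had 0 in every library. *Pdpn*, which encodes podoplanin, was itself higher in loaded cells, at 221 ± 9.14 against 147 ± 5.71 CPM (edgeR adjusted p = 0.0334), and the summed level of the osteocyte list was between 466 and 467 TPM in unloaded and between 606 and 621 TPM in loaded libraries. Of 6 macrophage and osteoclast markers, *Csf1r*, the receptor for macrophage colony-stimulating factor, was high at 1577 ± 7.50 CPM in unloaded and 1559 ± 3.23 CPM in loaded cells (SD, n = 2 each), whereas the defining markers *Ptprc* and *Adgre1* had at most 4 counts. The 3 tested genes of that list all had negative log2 fold changes, between -1.13 and -0.02, as did 8380 of all 16269 tested genes. Their median of -0.80 was the value of *Cd68*. *Cd68*, a lysosomal protein of macrophages, had counts of 162 and 141 without loading and of 99 and 84 with it, without overlap in CPM (log2 fold change -0.80, edgeR adjusted p = 0.216), beside the lower values of *Mmp9* described below. The summed level of that list, most of which was *Csf1r*, per unit of transcript length was between 937 and 958 TPM in unloaded and between 909 and 924 TPM in loaded libraries, and the part of either list in the results below was not tested. Endothelial, chondrocyte and adipocyte markers summed to at most 2.49, 16.9 and 0.0962 TPM in any library. *Kdr*, an endothelial receptor, had 0 counts in both unloaded libraries and 17 and 14 in the loaded ones (edgeR adjusted p = 0.135), and was called by the exact test of edgeR at 0.01, whereas the tested *Pecam1* and *Cdh5* had negative log2 fold changes of -0.96 and -0.59 (edgeR adjusted p = 0.792 and 0.638).

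The 6 metalloproteinases are related in sequence, and all of them hold the zinc-binding site of the catalytic domain. It is shown here as coding sequence, so that the 6 genes can be compared over it. The stretches come from the longest protein-coding transcript of each gene in GENCODE M21 (GRCm38), run 5′ to 3′ over 33 bases, and carry in capitals the codons of the 3 zinc-binding histidines. They were found by a search in the reading frame for the pattern of this site, which occurred once in each coding sequence.
Mmp2: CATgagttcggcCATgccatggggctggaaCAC
Mmp9: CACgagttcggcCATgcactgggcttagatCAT
Mmp3: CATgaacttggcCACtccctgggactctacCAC
Mmp10: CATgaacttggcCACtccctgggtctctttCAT
Mmp13: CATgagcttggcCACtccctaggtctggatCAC
Mmp14: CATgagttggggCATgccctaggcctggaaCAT
Of the 33 bases, *Mmp3* and *Mmp10* shared 29, the most of any pair, and *Mmp3* and *Mmp9* shared 20, the fewest. Over the aligned coding sequence, *Mmp3* and *Mmp10* were 79.8% identical, and their transcripts share an identical run of 104 bases, within which a shorter read cannot be assigned to either gene by its sequence. The other 14 pairs of metalloproteinases were between 60.3% and 65.2% identical, with identical runs of at most 17 bases, and the pairs of TIMP genes had runs of at most 14 bases.

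To describe how this system differed between the groups, loaded and unloaded libraries were compared across all tested genes with edgeR's quasi-likelihood test. The p-values were adjusted over all tested genes by the Benjamini-Hochberg method, with a threshold of 0.01. *Mmp9* was 2.47-fold lower in loaded cells, and *Mmp3*, *Mmp10* and *Mmp13* were between 1.61-fold and 1.70-fold lower. On the other side, *Timp3* was 1.35-fold higher and *Mmp14* 1.16-fold higher. None of the 10 genes passed the threshold of 0.01 in edgeR, against 0.0983% of all tested genes. At an adjusted p under 0.05, *Mmp9* (lower) and *Timp3* (higher) passed, which is 2 of 10 genes against 0.904% of all tested genes (0.565% lower and 0.338% higher). Without adjustment, 6 of the 10 genes had a p under 0.05, against 14.3% of all tested genes. They were *Mmp3*, *Mmp9*, *Mmp10* and *Mmp13* among the lower values, against 7.46%, and *Mmp14* and *Timp3* among the higher ones, against 6.88%. DESeq2, which the study used to call its differentially expressed genes, called 4 of the 10 at an adjusted p under 0.01. They were *Mmp9*, *Mmp10* and *Mmp13* as lower and *Timp3* as higher. This compares with 2.91% of the 12484 genes to which DESeq2 gave an adjusted p (1.55% lower and 1.36% higher). The exact test of edgeR called the same 4 genes, against 1.71% (1.08% lower and 0.639% higher), and limma-voom called 0, against 0.0983%. The shares stand beside these counts as description only, because the set was chosen with earlier results of these data known.

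**Figure D1:**
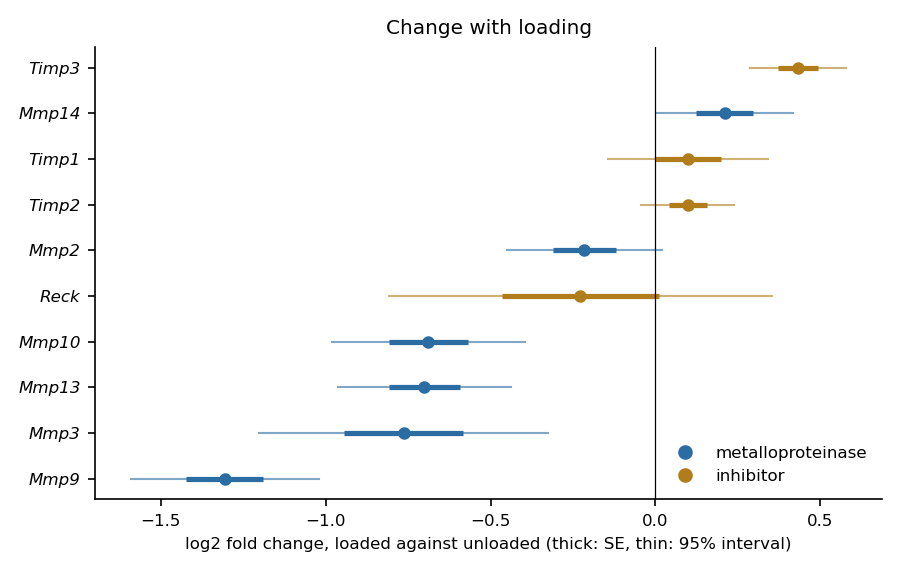
Log2 fold change of each gene in loaded against unloaded cells, with the standard error as a thick line and the 95% interval of the quasi-likelihood fit as a thin line (2 libraries per group). Metalloproteinases are blue and inhibitors ochre; *Mmp9* lies lowest at -1.31, and *Timp3* lies highest at 0.43.

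Most of the enzymes had lower values under loading, and the inhibitors were mixed. In 5 of the 6 metalloproteinases both loaded libraries were below both unloaded libraries, and in *Mmp14* both were above. Among the 4 inhibitors, both loaded libraries were above both unloaded ones for *Timp2* and *Timp3*, and the groups overlapped for *Timp1* and *Reck*. The 8 genes without overlap compare with 46.6% of all tested genes, the 5 lower ones with 24.5% and the 3 higher ones with 22.1%. The median log2 fold change was -0.70 over the metalloproteinases and 0.10 over the inhibitors, beside -0.01 over all tested genes.

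**Figure D2:**
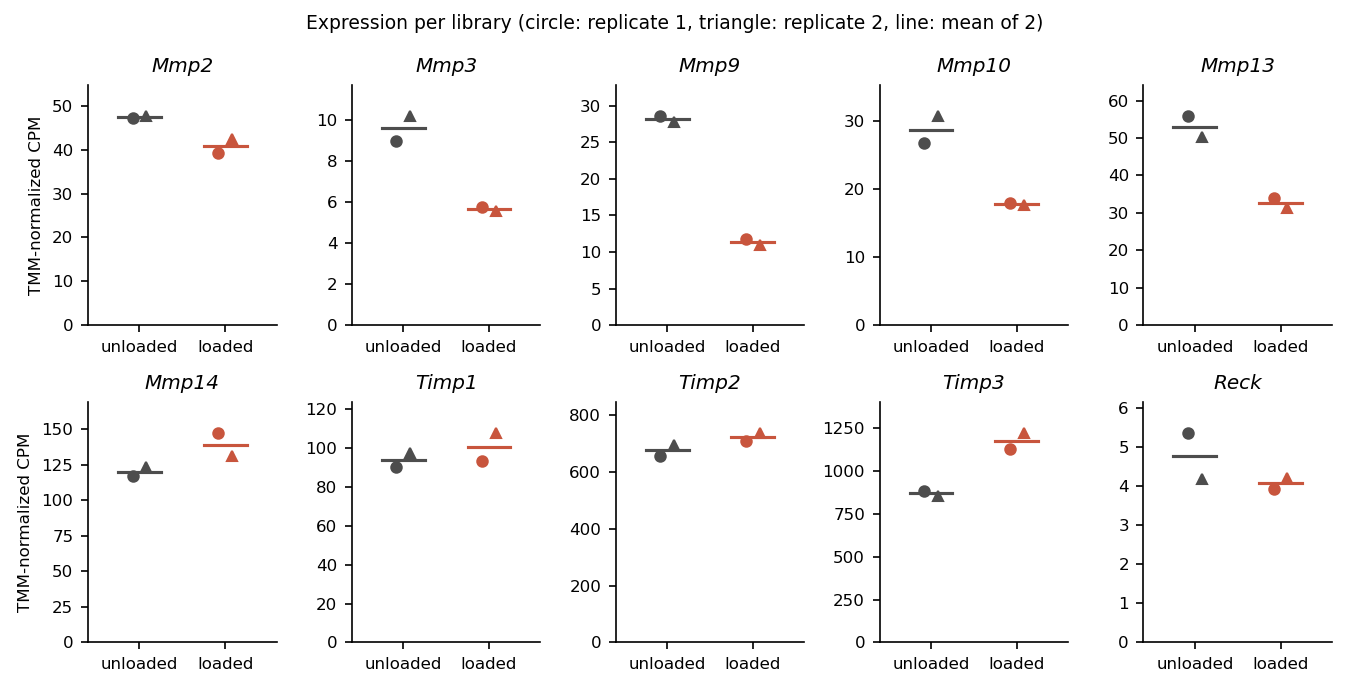
TMM-normalized CPM of the 10 genes in each library, with unloaded libraries in gray, loaded libraries in red, circles for replicate 1, triangles for replicate 2 and a line at the mean of 2. All vertical axes start at 0; for *Mmp9* the loaded libraries lie at 11.8 and 11.0 CPM, below the unloaded libraries at 28.6 and 27.8 CPM.

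Among the gelatinases, which digest denatured collagen and basement membrane, *Mmp9* (ENSMUSG00000017737.2, chromosome 2, 164940780 to 164955850, GRCm38) carried the largest difference of the set. Its counts were 831 and 843 without loading, against 381 and 328 with it. These correspond to 28.6 and 27.8 CPM without loading and to 11.8 and 11.0 CPM with loading. The groups were far apart relative to their replicates, which differed by less than 1 CPM. The log2 fold change was -1.31 (SE 0.12, 95% interval -1.59 to -1.02, edgeR adjusted p = 0.0137, DESeq2 adjusted p = 1.18e-08). By p-value *Mmp9* ranked 33 among the 16269 tested genes, and 515 genes had a log2 fold change of at least that size. When any 1 library was left out, it stayed between -1.36 and -1.26. The edgeR adjusted p was 0.0674 without loaded replicate 2 and at most 0.0499 without any of the other libraries.

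The second gelatinase, *Mmp2* (ENSMUSG00000031740.8, chromosome 8, 92827291 to 92853420), differed little. Its level was 47.2 and 47.7 CPM in the unloaded libraries and 39.3 and 42.4 CPM in the loaded libraries. Both loaded values were lower, with a log2 fold change of -0.22 (SE 0.10, 95% interval -0.45 to 0.02, edgeR adjusted p = 0.383). The RNA ratio of the 2 gelatinases therefore differed between these libraries, which is a description without a test. In TPM, which divides counts by the exon length of the gene and allows levels of different genes to be compared, *Mmp2* was 1.73 and 1.80 times the level of *Mmp9* in the unloaded libraries, and 3.50 and 4.05 times in the loaded libraries.

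*Mmp3*, *Mmp10* and *Mmp13* lie in a cluster of metalloproteinase genes on chromosome 9. *Mmp13* encodes the main interstitial collagenase of rodents. MMP3 and MMP10 are stromelysins, which cut proteoglycans and can activate other metalloproteinase precursors. From *Mmp13* to *Mmp7* the cluster spans 427 kb and holds 10 of the listed metalloproteinase genes, of which only these 3 passed the filter on low counts. Of the other 7, which were looked at after the values of the set were seen, 4 had 0 counts in every library and none had more than 15 counts in any library.

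*Mmp13* (ENSMUSG00000050578.10, 7272514 to 7283331) had 55.9 and 50.2 CPM without loading, and 34.0 and 31.2 CPM under loading. The log2 fold change was -0.70 (SE 0.11, 95% interval -0.96 to -0.44, edgeR adjusted p = 0.0575, DESeq2 adjusted p = 0.000205). *Mmp10* (ENSMUSG00000047562.3, 7502352 to 7510240) had 26.7 and 30.8 CPM without loading and 18.0 and 17.7 CPM with loading. Its log2 fold change was almost the same, -0.69 (SE 0.12, 95% interval -0.98 to -0.40, edgeR adjusted p = 0.0798, DESeq2 adjusted p = 0.00975).

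*Mmp3* (ENSMUSG00000043613.8, 7445822 to 7455975) was the least abundant of the 3, with counts of 262 and 310 without and 186 and 166 under loading. At 9.01 and 10.2 CPM against 5.76 and 5.57 CPM, the groups did not overlap. The log2 fold change was -0.76 (SE 0.18, 95% interval -1.20 to -0.33), with an edgeR adjusted p of 0.143 and a DESeq2 adjusted p of 0.162. The counts of *Mmp3* and *Mmp10* may share reads through the identical run of 104 bases given above, so these 2 values may not be fully separate measurements. Shared reads were not measured.

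After the values of these 3 neighbours were seen, the DNA before the start sites was read from the RefSeq promoter windows (GRCm38.p6). The windows held 8 of the 10 genes and not *Mmp2* and *Mmp9*. A search on both strands of the 250 bases before the start used AP-1 (TGAGTCA, reverse complement TGACTCA), the NRF2 core (TGACNNNGC), RUNX (TGTGGT) and a TATA box (TATAAA). The AP-1 and NRF2 letters can overlap in one stretch, which did not occur in these 8 genes. The sequences of the 3 neighbours and of *Timp3*, picked for their values, follow, and capitals mark the matches. For *Timp3* the 210 bases before its earliest start in either annotation are shown, with no match.
Mmp13 (chr9:7272264-7272513, plus strand): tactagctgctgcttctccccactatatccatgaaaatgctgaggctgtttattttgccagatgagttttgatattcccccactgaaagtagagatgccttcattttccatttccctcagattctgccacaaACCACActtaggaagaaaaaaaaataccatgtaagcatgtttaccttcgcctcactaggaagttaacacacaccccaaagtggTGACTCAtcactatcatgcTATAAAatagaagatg
Mmp3 (chr9:7445572-7445821, plus strand): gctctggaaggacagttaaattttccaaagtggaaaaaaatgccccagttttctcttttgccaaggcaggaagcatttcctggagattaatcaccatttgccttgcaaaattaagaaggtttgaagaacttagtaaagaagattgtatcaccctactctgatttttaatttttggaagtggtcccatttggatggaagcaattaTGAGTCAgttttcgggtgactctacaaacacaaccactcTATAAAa
Mmp10 (chr9:7502092-7502341, plus strand): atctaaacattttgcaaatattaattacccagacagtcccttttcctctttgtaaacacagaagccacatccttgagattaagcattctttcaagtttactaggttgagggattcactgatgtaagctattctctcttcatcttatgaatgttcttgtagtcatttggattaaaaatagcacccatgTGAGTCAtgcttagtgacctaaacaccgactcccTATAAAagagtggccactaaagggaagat
Timp3 (chr10:86300162-86300371, plus strand): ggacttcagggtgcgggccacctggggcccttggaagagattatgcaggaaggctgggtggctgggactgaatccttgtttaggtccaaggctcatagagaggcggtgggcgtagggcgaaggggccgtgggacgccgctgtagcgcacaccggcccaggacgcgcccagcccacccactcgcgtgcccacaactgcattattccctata
An AP-1 match was found before *Mmp13* at -35, *Mmp3* at -46 and *Mmp10* at -63, counted as the position of its first base before the start, and in none of the other 5 genes in the table. AP-1, a dimer of FOS and JUN proteins, is the textbook regulator of these promoters. Among all 32851 windows of this length, 4.46% held an AP-1 match. In the chromosome 9 cluster, 7 of the 10 genes held one in at least 1 annotated window, including *Mmp1a*, *Mmp1b*, *Mmp7* and *Mmp12*, which were at or near 0 counts here. A TATA box was matched in the same 3 genes, at -16, -7 and -29, against 12.4% of all windows. RUNX matches stood before *Mmp13* and *Mmp14*, against 14.0% of windows. The NRF2 core, of interest because the study is about NRF2, was matched before *Timp2* alone, against 10.2% of windows. A match is a run of letters, and binding was not measured in these RNA-seq data. The paper measured NRF2 binding in MLO-Y4 cells by ChIP-seq, which was not used here. It also reported Fos/AP-1 motifs in H3K27ac peaks that changed in either direction. Whether any of these motifs had a part in the differences with loading was not tested.

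**Figure D3:**
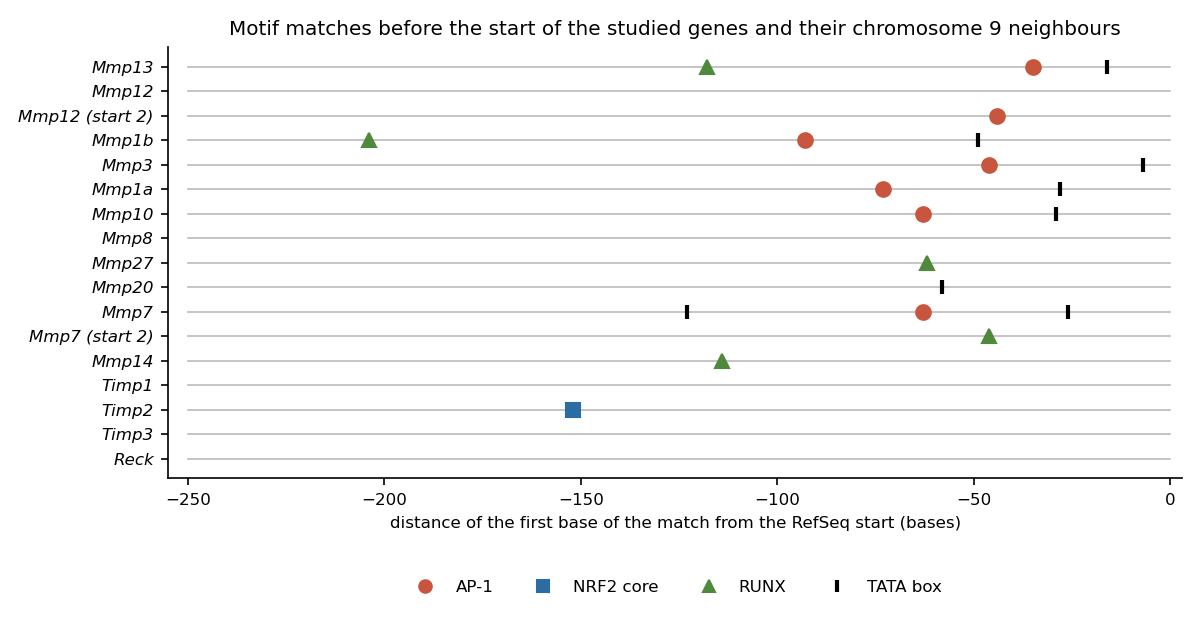
Position of motif matches in the 250 bases before the RefSeq start, one line per annotated window, for the genes of the set in the promoter table and for their chromosome 9 neighbours in genomic order. AP-1 matches (red circles) lie within 100 bases of the start in *Mmp13*, *Mmp3* and *Mmp10*, and no AP-1 match is drawn for *Mmp14*, *Timp1*, *Timp2*, *Timp3* or *Reck*.

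*Mmp14* (ENSMUSG00000000957.11, chromosome 14, 54431612 to 54445364) encodes MT1-MMP, a collagenase held in the cell membrane that activates the MMP2 precursor. It was the only metalloproteinase of the set with higher values under loading. Its level was 117 and 124 CPM in the unloaded libraries and 147 and 131 CPM in the loaded libraries. The groups did not overlap, but the loaded replicates differed from each other by more than the unloaded ones. The log2 fold change was 0.21 (SE 0.09, 95% interval 0.00114 to 0.42, edgeR adjusted p = 0.346), and it ranged from 0.12 to 0.29 when single libraries were left out.

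Of the inhibitors, *Timp3* (ENSMUSG00000020044.13, chromosome 10, 86300372 to 86349506) showed the clearest difference. TIMP3 is the TIMP that binds to the matrix, and it inhibits ADAM and ADAMTS proteases as well as metalloproteinases. The counts were 25694 and 25979 without loading and 36429 and 36457 with loading. In CPM the unloaded libraries had 884 and 856 and the loaded libraries 1128 and 1222. The groups were separated by more than the spread within either of them. The log2 fold change was 0.43 (SE 0.06, 95% interval 0.29 to 0.58, edgeR adjusted p = 0.0413, DESeq2 adjusted p = 1.08e-06). With single libraries left out it stayed between 0.37 and 0.49, and the edgeR adjusted p lay between 0.0584 and 0.123, above 0.05 in each case. *Timp3* shares 1733 of its 8144 exon bases with *Syn3* on the opposite strand. *Syn3* had between 20 and 41 counts per library, and the strand setting of the counting is not given in the sources used here.

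*Timp2* (ENSMUSG00000017466.9, chromosome 11, 118301069 to 118355740), whose protein inhibits metalloproteinases and also links MMP14 to the MMP2 precursor, had 656 and 695 CPM in the unloaded libraries and 710 and 736 CPM in the loaded libraries. The groups did not overlap, but lay close to each other, with a log2 fold change of 0.10 (SE 0.06, 95% interval -0.04 to 0.24, edgeR adjusted p = 0.502). *Timp1* (ENSMUSG00000001131.11, chromosome X, 20870166 to 20874735), whose protein binds the MMP9 precursor, had 90.3 and 97.4 CPM without and 93.5 and 108 CPM with loading. These groups overlapped, the log2 fold change was 0.10 (SE 0.10, 95% interval -0.14 to 0.34, edgeR adjusted p = 0.710), and without loaded replicate 2 it was -0.01. *Timp1* was 12.6 and 14.0 times the level of *Mmp9* in TPM in the unloaded libraries, and 31.6 and 39.0 times in the loaded ones.

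*Reck* (ENSMUSG00000028476.13, chromosome 4, 43875530 to 43944806), a lipid-anchored membrane protein that restrains several metalloproteinases, was counted least. Its counts were 156 and 127 in the unloaded and 127 and 126 in the loaded libraries. At 5.37 and 4.19 CPM against 3.93 and 4.22 CPM the groups overlapped. The log2 fold change was -0.23 with a wide 95% interval of -0.81 to 0.35 (edgeR adjusted p = 0.723), so that a fall of as much as 0.81 and a rise of as much as 0.35 lay within the interval at this depth.

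The levels per transcript length placed the TIMP genes far above the enzymes, and *Reck* below them. In unloaded cells *Timp2* was highest at 592 ± 13.4 TPM, followed by *Timp3* at 365 ± 14.9 and *Timp1* at 361 ± 12.6 TPM (SD, n = 2 each), and the libraries of the last 2 overlapped. *Mmp14* at 69.0 ± 1.33 and *Mmp13* at 67.9 ± 6.40 TPM followed and also overlapped. Below them came *Mmp10* at 57.0 ± 4.65, *Mmp2* at 48.1 ± 0.526, *Mmp9* at 27.2 ± 1.05, *Mmp3* at 18.2 ± 1.28 and *Reck* at 3.42 ± 0.660 TPM, each with both libraries below those of the gene before. With loading *Timp3* (485 ± 21.5 TPM) stood apart from *Timp1* (381 ± 33.2 TPM), and *Mmp14* (78.6 ± 7.53 TPM) stood apart from *Mmp13* (41.1 ± 2.96 TPM). *Mmp13* then overlapped *Mmp2* (40.8 ± 1.72 TPM), and *Mmp9* (10.8 ± 0.673 TPM) overlapped *Mmp3* (10.6 ± 0.387 TPM). With the length of the longest transcript in place of all exons, *Timp3* stood slightly above *Timp2* in unloaded cells, at 491 and 485 TPM, and well above it in loaded cells, at 653 and 512 TPM. That length also parted genes that overlapped in unloaded cells, with *Timp3* at 491 and *Timp1* at 283 TPM and *Mmp14* at 98.9 and *Mmp13* at 52.9 TPM, so the order and the closeness of these levels depend on the length used.

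The 6 metalloproteinases summed to 288 and 287 TPM in the unloaded libraries and to 224 and 209 TPM in the loaded libraries. The 3 TIMP genes summed to 1311 and 1326 TPM without loading and to 1446 and 1535 TPM with loading. The ratio of the first sum to the second was 0.218 ± 0.00237 in unloaded and 0.146 ± 0.0133 in loaded cells (SD, n = 2 each), a description without a test. The makeup of the enzyme sum differed as well. *Mmp14* made up 23.6% and 24.4% of it without loading and 37.4% and 35.0% with loading, and *Mmp9* made up 9.71% and 9.23% against 5.04% and 4.95%. Without *Mmp14*, the other 5 enzymes summed to 220 and 217 TPM and to 140 and 136 TPM. With the length of the longest transcript, the ratio of the sums was 0.219 in unloaded and 0.154 in loaded cells. *Mmp14* then stood at 98.9 TPM in unloaded and 113 TPM in loaded cells, so its share depends on the length used.

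**Figure D4:**
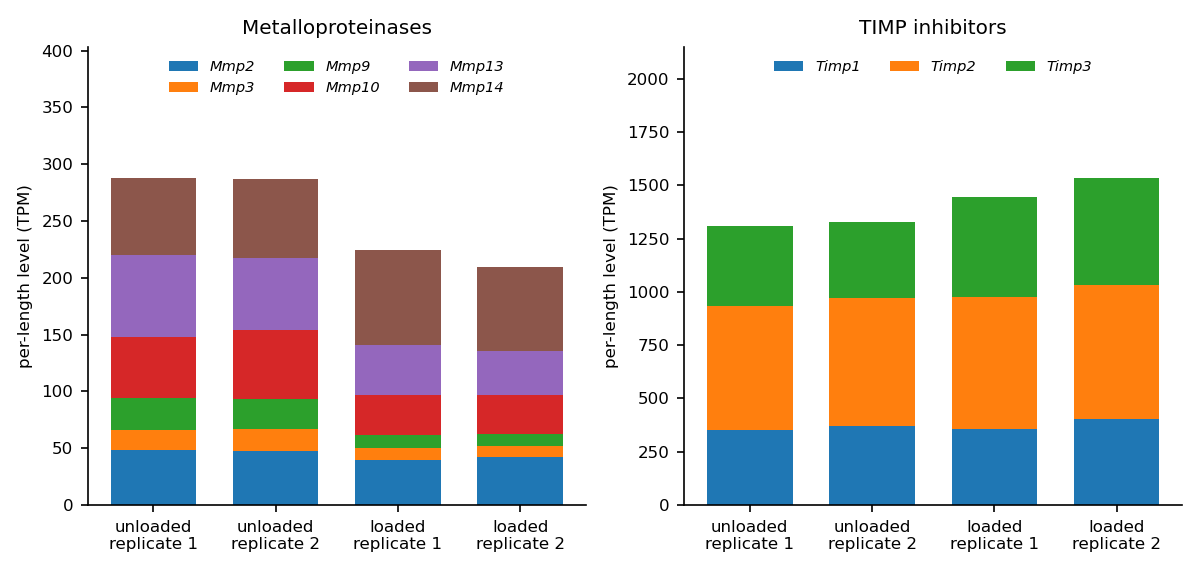
Summed per-length levels (TPM) of the 6 metalloproteinases (left) and the 3 TIMP genes (right) in each library, stacked by gene, with vertical axes that start at 0 and differ in scale. The enzyme sum is 288 and 287 TPM without loading and 224 and 209 TPM with it.

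Genes that act with these enzymes were read from the same fit in 6 lists. None of their 52 tested genes passed an edgeR adjusted p of 0.01. DESeq2 called *Adamts1* and *Ctsl*, both higher, which is 2 of the 49 genes with an adjusted p, beside 2.91% of all genes with one (1.36% higher). Of 18 other metalloproteinase and TIMP genes, 7 were tested and 7 had 0 counts in every library. The most abundant of them were *Mmp11* at 25.7, *Mmp15* at 8.83 and *Mmp19* at 6.26 TPM over all libraries, below each enzyme of the set except that *Mmp11* exceeded *Mmp9* and *Mmp3*. Their log2 fold changes were -0.13, 0.09 and -0.51, with edgeR adjusted p-values of 0.701, 0.837 and 0.489. *Mmp24*, a membrane-type enzyme that was picked for its values, was counted 11 and 21 times without loading and 77 and 51 times with it, with a log2 fold change of 1.92 (SE 0.48, edgeR adjusted p = 0.157), and DESeq2 gave it no adjusted p.

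The list of the plasmin system and the proprotein convertases holds activators of metalloproteinase precursors, and also inhibitors of plasminogen activation. It had 8 tested genes of 12, with a median log2 fold change of 0.22 beside -0.01 over all tested genes. Of the tested genes, 5 had positive and 3 negative log2 fold changes. *Plg*, which encodes the plasmin precursor, had 0 counts in every library. *Plau*, which encodes urokinase, had 208 ± 10.4 CPM in unloaded and 236 ± 10.3 CPM in loaded cells, a log2 difference of 0.18 (adjusted p = 0.331, edgeR). Its receptor *Plaur* had 121 ± 2.28 and 144 ± 4.24 CPM, a log2 difference of 0.25 (adjusted p = 0.189, edgeR). Protease and receptor were thus both higher by value, and neither passed the threshold. The largest log2 fold change of the list was that of *Serpinb2*, an inhibitor of urokinase picked for its value, at 0.60 (adjusted p = 0.250, edgeR).

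Among 16 tested ADAM and ADAMTS proteases the median log2 fold change was -0.02. *Adamts1*, a proteoglycan-cleaving enzyme, had 61.9 ± 5.73 CPM in unloaded and 86.4 ± 5.12 CPM in loaded cells (log2 fold change 0.48, SE 0.11, edgeR adjusted p = 0.130, DESeq2 adjusted p = 0.00445). The most abundant genes of this list, *Adam9*, *Adam10* and *Adam8*, had log2 fold changes of 0.10, 0.10 and 0.11, with edgeR adjusted p-values of at least 0.566. For *Adam9* and *Adam10* the second library of each group was the higher one, with 156 against 233 CPM and 112 against 213 CPM in the loaded libraries. At an unadjusted p under 0.05, 2 of the 16 genes were higher, beside 6.88% of all tested genes, and 4 were lower, beside 7.46%. They were *Adamts1* and *Adamts5* among the higher values and *Adamts2*, *Adamts4*, *Adamts10* and *Adamts14* among the lower ones.

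The most abundant surface partners of the enzymes had small differences. *Bsg*, which encodes the metalloproteinase inducer basigin, *Itgb1* and *Cd44*, whose protein can hold MMP9 at the cell surface, had log2 fold changes of -0.05, 0.11 and 0.07, with edgeR adjusted p-values of at least 0.581. The median over 7 tested genes was 0.07. Among the others, picked for their values, *Lrp1*, a scavenger receptor that takes up metalloproteinases, had 1394 and 1376 CPM without loading and 1179 and 1190 CPM with it (log2 fold change -0.23, edgeR adjusted p = 0.121, DESeq2 adjusted p = 0.0399). *Cav1* was higher by 0.27 on the log2 scale, without overlap between the groups (adjusted p = 0.448, edgeR). For *Itgav* the log2 fold change was 0.71 (adjusted p = 0.482, edgeR), and the groups overlapped, with 183 and 475 CPM under loading against 206 and 197 CPM without it. Of 6 further genes linked to perilacunar remodeling 3 were tested, and *Acp5*, *Car2* and *Atp6v0d2* had at most 5 counts in any library. The cathepsin genes *Ctsb*, *Ctsl* and *Ctsk* had log2 fold changes of 0.01, 0.31 and 0.61. Only *Ctsl*, at 360 ± 8.53 CPM in unloaded and 447 ± 29.6 CPM in loaded cells, passed 0.01 in DESeq2 (adjusted p = 0.00565, edgeR adjusted p = 0.129). *Ctsk*, which encodes the collagen-degrading cathepsin K, had 4.99 ± 0.198 and 7.63 ± 0.413 CPM (edgeR adjusted p = 0.228).

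The transcription factor list, which holds the AP-1 subunits, ETS factors and *Runx2*, had 11 tested genes with a median log2 fold change of 0.09. *Fosl1*, *Jun* and *Jund*, its most abundant members, had log2 fold changes of -0.06, 0.09 and 0.32 (edgeR adjusted p = 0.738, 0.572 and 0.432). None of the 11 had an edgeR adjusted p under 0.05, and 1 gene, *Fosl2*, had an unadjusted p under 0.05 with higher values in loaded cells, beside 6.88% of all tested genes.

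**Figure D5:**
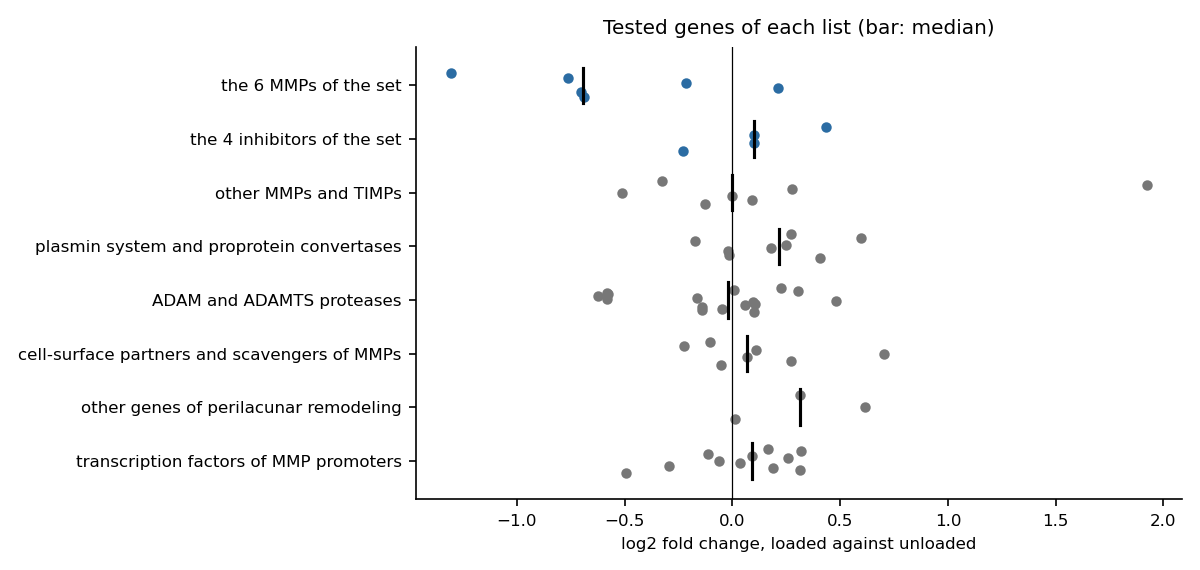
Log2 fold changes in loaded against unloaded cells for the tested genes of the set (blue) and of 6 related lists (gray), with a bar at the median of each list. The metalloproteinases of the set have a median of -0.70, and the medians of the 6 lists lie between -0.02 and 0.31.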

How the data were processed

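RNA-seq was performed on 2 unloaded and 2 loaded samples of MLO-Y4 cells after depletion of ribosomal RNA. The authors removed adapters and low-quality reads, aligned the rest to mm10 with HISAT2 (version 2.1.0), assembled transcripts with StringTie (version 1.3.5) and deposited whole-number counts per gene without normalization. These were made with the script that accompanies StringTie, which converts transcript coverage back into counts. The annotation, strandedness and read length are not given in the sources used here. All 55450 gene identifiers match GENCODE M21 (GRCm38), which supplied coordinates, exon lengths and transcripts. Libraries were assigned from the sample titles and the control or treatment prefix and replicate number of each column.

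Counts were analysed with edgeR 4.0.16 in R 4.3.3: filterByExpr (minimum count 10), TMM factors and its quasi-likelihood test, adjusted by the Benjamini-Hochberg method over 16269 tested genes and the threshold of 0.01 that the study used. The SE is the log2 fold change divided by the square root of F, and the 95% interval uses the total degrees of freedom of the fit. TPM values were computed from counts and union exon length. DESeq2 1.42.0, limma-voom (limma 3.58.1), the exact test of edgeR, other scaling factors and filters, a replicate block, an adjusted p under 0.05 and leaving out each library were alternatives. The procedure was tested on simulated data in which every gene had the same dispersion. That test checks the code and does not give the error rates of the fits in these data. Sequence comparisons used Biopython 1.88. The set and the lists were chosen with earlier results of these data known. Named genes are the 10 of the set, list genes with an adjusted p under 0.01 in edgeR or DESeq2, and the 3 of each list with the highest TPM. A gene of the plasmin list that this rule takes is not reported here. Others are marked where they appear or named for a count, a marker check or a shared sequence.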

Additional observations from a re-analysis of the deposited data

How the results depend on the processing

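No gene of the set passed an adjusted p of 0.01 under upper-quartile or RLE factors, either other filter on low counts, limma-voom, the replicate block, or a fit without any one library. The count was 4 with DESeq2, 4 with the exact test of edgeR and 2 at an adjusted p under 0.05. For the related lists it was 0 under every alternative run except 2 with DESeq2. Over all tested genes, 16 passed in the reported fit, 363 with DESeq2, 279 with the exact test, 29 with at least 10 counts in every library, 147 at an adjusted p under 0.05 and 0 without a filter, and leaving out single libraries gave between 0 (without either loaded library) and 58. A fit without one library leaves 1 library in a group, which is assumed to vary like the others. Of 120 fold changes of the 10 genes under 12 alternatives each, 111 kept their direction and their side of the threshold, 8 kept their direction and passed it, and 1 turned its sign, *Timp1* without loaded replicate 2 (-0.00642, with values up to 0.200 without the other libraries). The cause of these shifts was not tested.

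Replicate numbers do not state a pairing, and same-numbered libraries did not deviate together (correlation across genes -0.0570). With the replicate block 0 genes passed 0.01. In that edgeR fit 1839 of all 16269 tested genes had an unadjusted p under 0.05, beside 5 of the 10 genes of the set. The *Mmp9* log2 fold change was -1.31 (edgeR adjusted p = 0.0301) and that of *Timp3* 0.43 (edgeR adjusted p = 0.147). Low counts limit the precision of *Reck*, which had at most 156 counts in any library.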
